A study of Drosophila melanogaster with 6 samples.

Results

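The genes described here are 10 zinc carboxypeptidase genes of *Drosophila melanogaster*, *CG8560*, *CG8562*, *CG8563*, *CG8539*, *CG17633*, *CG12374*, *CG18417*, *CG3097*, *CG4408* and *CG7025*, among 12967 gene entries measured in the midgut. They were taken by name from the deposited table, in which each of the 10 has exactly 1 probe set. The names were picked with the difference between the genotypes on these same arrays already known, so that difference is given for them as a description and without a test. The arrays were of the Affymetrix type Drosophila Genome 2.0, whose probe sets each combine several short oligonucleotides matching the transcript of 1 gene or of a few related genes. RNA came from pooled whole midguts of adult females aged 7 days after eclosion, in 3 wild type samples and 3 samples mutant for *Apc1*, with 1 sample per array. The mutants carry the null allele *Apc1*Q8 in the whole animal, and not in the gut alone. The study's methods give the controls as Canton S, but the design text of the deposit gives w1118, so their strain is open, and an effect of *Apc1* cannot be told apart from one of the strain background. No source says whether the samples of a genotype came from separate cultures, so p-values measure only the spread between these samples.

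Zinc carboxypeptidases of the M14 family remove single amino acids from the carboxyl end of peptides. In the gut they act after the endopeptidases, such as trypsins and chymotrypsins, have cut dietary proteins into shorter chains, and most digestive members are secreted as inactive precursors whose leading segment is cut off. The A type prefers hydrophobic end residues and the B type prefers lysine or arginine. Other members of the family do not digest food, and instead trim prohormones or modify tubulin. In the adult fly midgut, digestive enzymes are made mainly by enterocytes, the large absorptive cells of the epithelium, and their transcripts differ between regions along its length.

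As a check of the labels, *fz3*, a target of Wingless signaling, was at 6.10 to 6.38 on the wild type arrays and at 8.42 to 9.07 on the *Apc1* mutant arrays. *Apc1* itself, listed as *Apc*, ranged from 5.89 to 6.63 and from 6.13 to 6.94, so its transcript level did not separate the groups and checks nothing about a null allele. All values are log2 expression after RMA, a normalization across arrays, and the medians of the arrays lay between 2.54 and 2.60, with upper quartiles between 5.30 and 5.46. These serve as the reference for whether a probe set is dim. Of the lists of cell type markers, all 8 enterocyte genes were higher in mutants with no overlap between the groups, as were 20.9% of all entries, but only 1 of the 8 was called. The copper cell region of the middle midgut went the other way, with 3 of its 4 genes called lower and none higher.

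Between the genotypes, 5 of the 10 carboxypeptidase genes were lower in *Apc1* mutants and 1 was higher by the rule used for all genes, which asks for both a difference over 2-fold and a limma adjusted p below 0.05. The rule called 3.07% of all entries lower, 3.19% higher and 6.26% in either direction, and nothing is read from the comparison of these shares with the members' count because the members were chosen on this contrast. *CG8560*, *CG12374*, *CG8562*, *CG8539* and *CG17633* were lower by 6.64-fold to 52.3-fold, whereas *CG18417* was 5.55-fold higher. The values of the genotypes did not overlap in 7 members that were lower and 1 that was higher, a pattern found in 14.2% and 20.9% of all entries, or 35.2% in either direction. The 7 include *CG8563*, which was dim on all arrays and whose groups lay only 0.0025 apart. The 4 that were not called were *CG7025*, *CG3097*, *CG4408* and *CG8563*. The median difference over the 10 genes was -1.75 on the log2 scale, mutant minus wild type, where the median over all entries was 0.01. In a bulk sample, fewer cells of a type and less RNA per cell cannot be told apart.

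**Figure D1:**
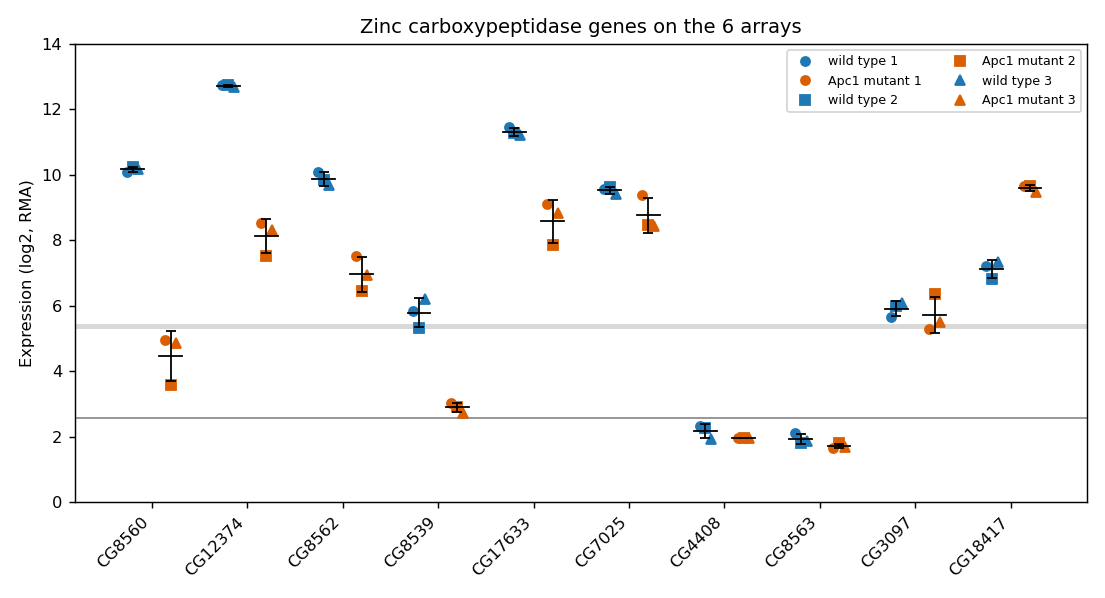
Log2 expression (vertical axis) of the 10 zinc carboxypeptidase genes (horizontal axis, ordered by the difference between genotypes) on each array, with blue symbols for wild type, orange symbols for *Apc1* mutants, and bars for the mean ± SD of 3 arrays. The dark band marks the range of the array medians and the light band that of the upper quartiles, and *CG8560* and *CG12374* at the left show the widest gaps between the groups.

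*CG8560* showed the largest difference of the 10. It was at 10.10, 10.24 and 10.18 on the 3 wild type arrays, and at 4.94, 3.59 and 4.86 on the *Apc1* mutant arrays. All 3 mutant values lay below the upper quartile of their arrays but above the median, and the closest values of the groups were 5.16 apart. The mean went from 10.17 ± 0.07 (SD, n = 3) to 4.46 ± 0.76 (SD, n = 3), a difference of -5.71 on the log2 scale, or 52.3-fold.

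*CG12374* was the next. Its wild type values of 12.75, 12.74 and 12.68 were nearly identical, with a mean of 12.72 ± 0.04 (SD, n = 3). In mutants the values were 8.52, 7.53 and 8.32, with a mean of 8.12 ± 0.52 (SD, n = 3). The transcript was thus 24.2-fold lower, a log2 difference of -4.60, while every mutant array still measured it above the upper quartile.

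*CG17633*, likewise above the upper quartile on all 6 arrays, was at 11.45, 11.29 and 11.22 in wild type and at 9.09, 7.85 and 8.82 in mutants. Its mean went from 11.32 ± 0.12 (SD, n = 3) to 8.59 ± 0.66 (SD, n = 3), a log2 difference of -2.73. *CG8562* was at 10.10, 9.85 and 9.68 in wild type and at 7.51, 6.44 and 6.93 in mutants. For *CG8562* the means were 9.87 ± 0.21 (SD, n = 3) and 6.96 ± 0.53 (SD, n = 3), a difference of -2.92. In both genes the lowest wild type array exceeded the highest mutant array by more than 2 units.

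*CG8539* had much the same difference as *CG8562*, -2.90, but reached a dimmer end point. The wild type arrays gave 5.84, 5.32 and 6.21 (mean 5.79 ± 0.45, SD, n = 3), and the mutant arrays 3.02, 2.92 and 2.73 (mean 2.89 ± 0.15, SD, n = 3). These mutant values were close to the array medians. The size of its change therefore depends on how RMA treats the background, and with all values under 3 set to 3 the difference was -2.78.

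*CG18417*, listed in RefSeq under the synonym carboxypeptidase b1, was the single member with higher expression in mutants. Its values of 7.21, 6.83 and 7.34 in wild type became 9.65, 9.66 and 9.49. The means were 7.13 ± 0.27 (SD, n = 3) and 9.60 ± 0.09 (SD, n = 3), a difference of 2.47, and the groups stood 2.15 apart at their closest.

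*CG7025* lay between the genes with large differences and those with none. It was at 9.55, 9.62 and 9.42 in wild type and at 9.39, 8.47 and 8.43 in mutants, so that mutant replicate 1 lay just under the wild type range and the other two well below it. The difference of the means was -0.77, from 9.53 ± 0.10 (SD, n = 3) to 8.76 ± 0.54 (SD, n = 3). Without *Apc1* mutant replicate 1 it was -1.08, and the gene then met the rule used for calling.

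The 3 remaining members showed little difference. *CG3097* was at 5.65, 5.98 and 6.10 in wild type and at 5.29, 6.34 and 5.51 in mutants, so the groups overlapped, with a difference of -0.20. *CG4408* (1.94 to 2.33 in wild type and 1.96 to 1.96 in mutants) and *CG8563* (1.79 to 2.10 and 1.67 to 1.79) lay below the median on all 6 arrays. At that end of the scale a transcript that is absent and one that is rare give similar values, so no difference was measurable for either.

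The spread of the arrays within a genotype differed among the members, with a larger SD in mutants for 6 of them and a larger SD in wild type for the other 4. For *CG8560*, *CG12374*, *CG17633* and *CG8562* the SD was 0.04 to 0.21 in wild type and 0.52 to 0.76 in mutants, and it was 0.10 and 0.54 for *CG7025* and 0.23 and 0.56 for *CG3097*. The order was opposite for *CG8539* (0.45 in wild type and 0.15 in mutants), *CG18417* (0.27 and 0.09), *CG8563* (0.16 and 0.07) and *CG4408* (0.21 and 0.0035). Over all entries the median SD was 0.19 in wild type and 0.14 in mutants, and an SD in mutants as large as that of *CG12374* occurred in 4.13% of entries. Among the genes called lower, the median SD was 0.34 in wild type and 0.27 in mutants.

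Mutant replicate 2 was the lowest of the 6 arrays in 4 of the 5 members called lower. It lay below the mean of mutant replicates 1 and 3 by the following log2 differences, -1.31 in *CG8560*, -1.11 in *CG17633*, -0.89 in *CG12374* and -0.78 in *CG8562*. In *CG8539* and *CG18417* the same array differed from the mean of the other two by 0.04 and 0.08, and in *CG3097* it was higher by 0.95. The corresponding median was -0.01 over all entries and -0.13 over the genes called lower, of which 46.0% had this array as their lowest. Without it, the differences between the genotypes were -5.27 for *CG8560*, -4.30 for *CG12374*, -2.66 for *CG8562* and -2.36 for *CG17633*, each still past 2-fold. Leaving out the lowest array of these 4 genes could only make their differences smaller. For *CG8539* the difference was -2.91 without it and -2.90 with it.

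**Figure D2:**
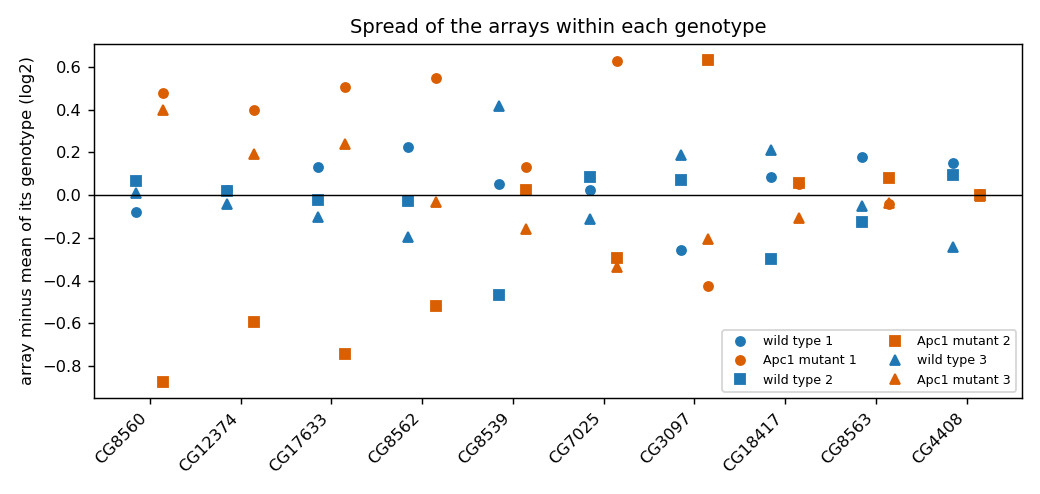
Each array's log2 value minus the mean of its own genotype (vertical axis) for the 10 genes (horizontal axis), with blue symbols for wild type and orange symbols for *Apc1* mutants. Mutant replicate 2 (orange squares) lies lowest in *CG8560*, *CG12374*, *CG17633* and *CG8562*, near the mean in *CG8539* and *CG18417*, and highest in *CG3097*.

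Single marker genes of other tissues also differed between the mutant arrays. The summed level of the 6 ovary genes, as the log2 of their added linear values, was 6.46 on mutant replicate 2 and 9.12 and 9.22 on the other two mutant arrays, against 9.52 to 11.09 in wild type. This sum was carried by the yolk protein gene *Yp1* (6.11 on mutant replicate 2), so it is no measure of the ovary. The other ovary genes were below the median of that array (2.54). Among the mutant arrays, *osk* and *bam* (2.17 and 1.70) were highest there, *Cp36* and *Vm26Aa* (2.52 and 1.80) lowest, and *vas* (0.99) between. In wild type, replicate 2 had *osk* at 6.33, against 3.24 and 1.36 on replicates 1 and 3. It had *Vm26Aa* at 5.08, against 2.66 and 2.55. Among the wild type arrays *bam* and *Cp36* were lowest on replicate 2, and *vas* was between. For the 7 fat body genes the sum was 6.09 on mutant replicate 2 and 7.35 and 7.89 on the others, with 6.68 to 9.25 in wild type, and it was carried by the lipoprotein gene *apolpp* (5.65 on mutant replicate 2). For the 5 Malpighian tubule genes mutant replicate 2 was instead the highest mutant array, at 9.04 against 8.18 and 8.53. The wild type sums were 7.85, 8.93 and 8.11, with replicate 2 again the highest. On mutant replicate 2 the sum was carried mainly by *Irk2* (8.60). Among the mutant arrays *Uro* (5.72) was lowest there, and *Irk2*, *ZnT35C*, *CapaR* and *NaPi-T* were highest. Between the genotypes *NaPi-T* was called lower in mutants (-1.79, limma adjusted p = 0.0287). The part of these tissues in the spread of the carboxypeptidases was not tested.

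The genes were taken by name, and whether their position played a part in picking the names is not recorded. The members' directions given below were known when the names were picked. In the RefSeq annotation (Release 6 of the genome), 13 M14 genes lie in 4 runs with no other protein-coding gene between them, and 7 of the 10 members are in these runs. The longest run, on arm 3L, holds 6 genes in the order *CG8564*, *CG8563*, *CG32379*, *CG8562*, *CG18417* and *CG8560*. Directly adjacent genes in it went in opposite directions, with log2 differences of 1.18, -2.92, 2.47 and -5.71 for *CG32379*, *CG8562*, *CG18417* and *CG8560*. The first 2 genes of the run, *CG8564* and *CG8563*, were below the array median on all 6 arrays.

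**Figure D3:**
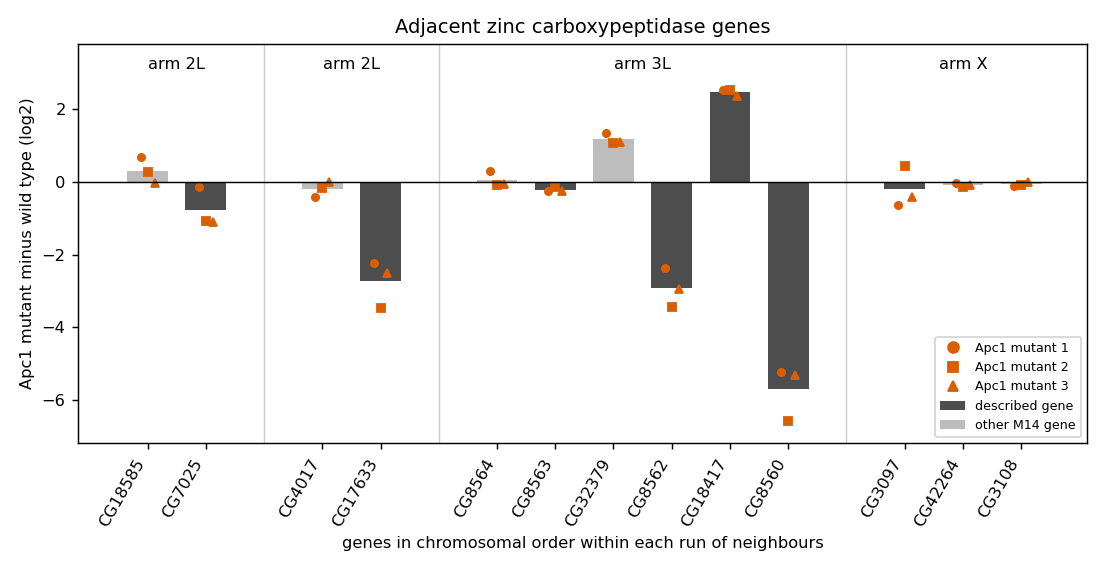
Log2 difference of *Apc1* mutant minus wild type (vertical axis) for M14 genes in the 4 runs of adjacent genes, in chromosomal order (horizontal axis, not to genomic scale). Bars give the difference of the means, dark for the described genes and light for other M14 genes, and symbols give each mutant array minus the wild type mean. In the run on arm 3L the bars alternate between higher and lower from *CG32379* to *CG8560*.

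Pairs on arm 2L likewise held genes with unlike values. *CG17633* lies next to *CG4017*, which was below the array median throughout (1.52 to 1.70 in wild type and 1.22 to 1.61 in mutants). *CG7025* lies next to *CG18585*, whose values of 9.68 to 10.09 in wild type and 9.85 to 10.56 in mutants overlapped, with a difference of 0.31 (SE 0.20, limma adjusted p = 0.375). On the X chromosome, *CG3097* is followed by *CG42264* and *CG3108*, both below the array median on all arrays. The other members, *CG8539* on 3L, *CG12374* on 2R and *CG4408* on 3R, had no M14 gene of the list beside them.

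The 13 other genes of the M14 family on the arrays are those left after the members were taken out with their differences known, so their counts are a description only and cannot be set against those of the members. Of the 13, 2 were called higher and none lower (median difference 0.05). The called genes were *CG32379* and *CG14820*. *CG14820* rose from 9.04, 9.52 and 8.99 in wild type to 10.71, 10.41 and 10.57 in mutants, by 1.38 (SE 0.17, limma adjusted p = 0.00298). *CG32379*, the neighbor of *CG8562*, rose from 8.28, 8.35 and 8.28 to 9.66, 9.39 and 9.40, by 1.18 (SE 0.12, limma adjusted p = 0.00128). Neither change was shown to exceed 2-fold when tested against that threshold with limma's treat, which called none of the 13. *CG2915* fell by less than 2-fold, from 6.80 ± 0.15 (SD, n = 3) to 5.97 ± 0.04 (SD, n = 3), a difference of -0.84 (SE 0.12, limma adjusted p = 0.00503).

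The genes *svr* and *Nna1*, from the branches of the family with roles outside digestion, did not pass the test. *svr*, a carboxypeptidase D that trims prohormones in the secretory pathway, was at 5.92 to 6.19 in wild type and 6.20 to 6.39 in mutants (difference 0.23, limma adjusted p = 0.255). *Nna1*, whose relatives in mammals remove glutamates from tubulin, was at 2.87 ± 0.43 (SD, n = 3) and 3.40 ± 0.39 (SD, n = 3), with an adjusted p = 0.248 in limma. *CG8945*, *CG4678* and *CG31019*, like *CG8564*, *CG4017*, *CG42264* and *CG3108*, were below the array median on every array, and their differences between -0.19 and 0.38 had limma adjusted p-values from 0.25 to 0.887.

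Serine carboxypeptidases remove carboxyl-terminal residues by a different chemistry, and in mammals are known from lysosomes. Of the 5 on the arrays, 1 was called lower and none higher, with a median difference of -0.66. *CG32483* fell from 9.25, 8.90 and 8.94 in wild type to 5.37, 4.42 and 4.67 in mutants, a log2 difference of -4.21 (SE 0.25, limma adjusted p = 0.000131). *hiro* fell by 0.66 (limma adjusted p = 0.0254), short of 2-fold.

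M1 aminopeptidases, which trim peptides from the amino end and in the gut are often bound to the enterocyte surface, changed in both directions. Of 16 genes, 3 were called higher and 2 lower, and the median difference was -0.19. The values of *CG31233*, among those lower, went from 11.28 ± 0.26 (SD, n = 3) to 9.70 ± 0.52 (SD, n = 3), a difference of -1.59 (limma adjusted p = 0.0103), and *superdeath* differed by -1.34 (limma adjusted p = 0.0106). *CG8774* rose by 1.49 (limma adjusted p = 0.0035), *CG5849* by 1.29 (limma adjusted p = 0.0146) and *CG32473* by 1.01 (limma adjusted p = 0.00587). Without *Apc1* mutant replicate 1 the calls dropped from 5 to 3, with *CG5849* and *CG32473* lost. *CG32473* was also not called with median centring, quantile normalization or treat, or without *Apc1* mutant replicate 3 or wild type replicate 1 or 3. With every probe set tested separately, *CG42335* was called lower too. Its brightest probe set, at -1.10, was not called (limma adjusted p = 0.165).

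Dipeptidases and peptide transporters, which handle the short products of digestion, gave no call among 6 genes in limma, although 2, *Cndp2* and *Dip-C*, had an unadjusted p under 0.05. *Dip-C* fell by less than 2-fold, a difference of -0.52 (SE 0.13, limma adjusted p = 0.0429), and *Cndp2* differed by 0.49 (limma adjusted p = 0.0537). The transporter gene *yin* was at 4.12, 5.26 and 4.25 in wild type and at 2.75, 4.82 and 3.06 in mutants. Replicate 2 was the highest array in both genotypes, and the difference between the means of 4.54 and 3.54 missed the threshold (limma adjusted p = 0.295), but the gene met the rule without *Apc1* mutant replicate 2.

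**Figure D4:**
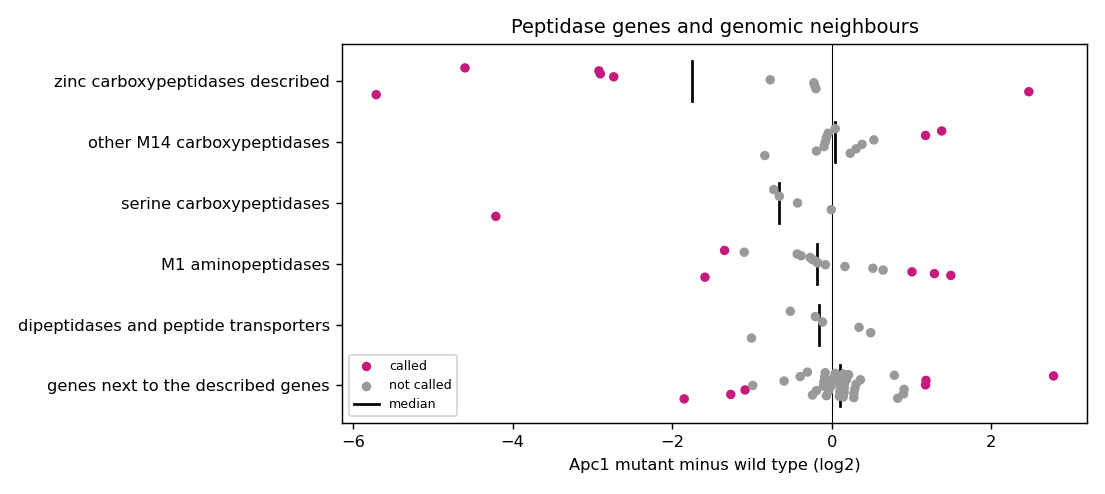
Log2 difference of *Apc1* mutant minus wild type (horizontal axis) for each gene of 6 lists (rows), with 1 point per gene, colored where the gene was called, and a line at each list's median. The described carboxypeptidases, which were chosen with this difference known, reach from -5.71 to 2.47. The other M14 genes, from -0.84 to 1.38, are those left after that choice, so the ranges are not comparable.

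The measured genes nearest to the members, 3 on each side along the chromosome, made up 43 entries, of which 3 were called higher and 3 lower (median difference 0.11). *Tep2*, a thioester protein of the immune response near *CG7025*, rose from 3.07 ± 0.44 (SD, n = 3) to 5.85 ± 0.30 (SD, n = 3), by 2.78 (limma adjusted p = 0.000722). *Myo28B1*, an unconventional myosin on the other side of *CG7025*, differed by -1.26 (limma adjusted p = 0.0104). Near *CG17633*, the pickpocket channel genes *ppk18* and *ppk16* fell by 1.85 (limma adjusted p = 0.0129) and fell by 1.09 (limma adjusted p = 0.0247), both reaching mutant means of 2.04 or less. *CG4393* near *CG4408* rose by 1.18 (limma adjusted p = 0.0182), and *CG32379* was the remaining call. None of the 6 neighbors of *CG12374* and none of the 6 of *CG8539* was called, at differences between -0.99 and 0.90. These ends were near the threshold, since *ltl* next to *CG8539* (-0.99, limma adjusted p = 0.0283) was called lower with array weights, median centring, quantile normalization or without wild type replicate 2, and *Cyp9h1* next to *CG12374* (0.90, limma adjusted p = 0.016) was called higher without wild type replicate 1. Without *Apc1* mutant replicate 3 the calls among neighbors dropped from 6 to 2, *CG32379* and *Tep2*.

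Cell type markers moved with the genotype as well. The summed level of the 8 enterocyte genes was 12.33 to 12.55 in wild type and 13.08 to 13.28 in mutants, with differences from 0.47 to 1.03, of which *Ssk*, a septate junction protein gene, was called. The 6 progenitor genes had summed levels of 6.49 to 6.58 and 7.18 to 7.27. These sums were carried by *esg*, which was called higher, and *klu*, which was not called. The others were dim, with wild type means from 1.83 to 2.85, and *Sox21a* overlapped between the groups. *Dl*, also on the list of progenitor markers, had no entry. The 10 enteroendocrine genes had summed levels of 10.28 to 10.45 and 11.12 to 11.42, with 5 called higher and 1 lower. The one called lower was the peptide hormone gene *NPF* (-1.78, limma adjusted p = 0.00939), *CCHa2* differed by -0.72 (limma adjusted p = 0.0797), and *Orcokinin* overlapped between the groups. For the 4 genes of the copper cell region the range was 9.23 to 10.23 in wild type and 7.48 to 7.96 in mutants. In mutants the sum was carried by *CAH1* and *Ptx1*. *CAH1* overlapped between the groups (-0.57, limma adjusted p = 0.237), while *Ptx1* was called lower (-1.93). The region's defining transcription factor gene *lab* was at 5.90 to 6.98 and then at 2.10 to 2.26. *Vha100-4*, a proton pump subunit gene, was at 7.53 to 9.17 and then at 1.39 to 1.95. The part of these cell types and regions in the carboxypeptidase differences was not tested.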

How the data were processed

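Total RNA of 3 wild type and 3 *Apc1* mutant samples was hybridized to 6 arrays. The authors made the deposited log2 values by RMA and log2 transformation, with 1 value per probe set and array. The submitters' processing notes also name MAS5, and the background setting is not given in the sources used here. Fold changes of dim genes depend on it. The table also holds the authors' own fold changes and p-values, which were not used. Precision is limited by the number of arrays.

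Of 18952 probe sets, 183 controls and 3977 without a gene name were left out. The rest were named through RefSeq accessions (14363), symbols (311) or the deposited name (118), and the brightest probe set stood for each of 12967 entries. Genotypes were compared with limma 3.58.1 in R 4.3.3 (lmFit and eBayes), with Benjamini-Hochberg adjustment over all entries, and calls required an adjusted p under 0.05 together with a difference over 2-fold. Tested on simulated data of 12967 genes, the fit recovered 196 of 200 genes changed by 2 on the log2 scale and made 6 false calls. The simulated noise was normal and independent between genes, at the variances that limma estimated here. It therefore checks the working of the fit alone, and effects that an array shares across genes were not simulated. Tables and plots were made with Python 3.11.15, pandas 2.3.3 and matplotlib 3.10.9.

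The members and lists were chosen with earlier results of these data known. Named genes are all members, all other M14 genes, and the called genes of the other lists. *hiro*, *yin*, *Dip-C*, *Cndp2*, *CG42335*, *ltl*, *Cyp9h1*, *Apc* and markers were named after their values were seen. Alternatives were other summaries of probe sets, scalings, filters, thresholds, variance estimates, array weights, the replicate block and leaving out each array. Sequences of promoters and proteins, and cross-hybridization between related genes, were not analysed here.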

Additional observations from a re-analysis of the deposited data

How the results depend on the processing

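The count of 6 members called was 5 without genes of a mean under 5, which leaves out *CG8539*. With 1 array left out it was 6 to 7. In every other alternative, treat and the replicate block included, the same 6 genes were called. The members were chosen with this difference known on these same arrays. Their steady count therefore describes the processing only and is no test of the members. The labels number the samples 1 to 3 in both genotypes, but the deviations of same-numbered arrays correlated at 0.15, 0.20 and 0.01, so the numbers were not taken as a pairing. Of the 6 arrays, 5 correlated best with their own number, and *Apc1* mutant replicate 3 did so with wild type replicate 1 (0.12). The replicate block gave 824 calls over all genes in place of 812 and 1 in place of 0 for the dipeptidases and transporters (*yin*).

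With values under 3 set to 3, the calls were 472 of all genes, 2 M1 aminopeptidases and 2 neighbors, and the differences of *CG8563* and *CG4408* became 0. Without genes of a mean under 5, where 4891 were tested, the calls were 505, 3 and 2. The treat method, with 2-fold as its null hypothesis, gave 228 of all genes, 0 of the other M14 genes, 0 M1 aminopeptidases and 1 neighbor. An adjusted p under 0.01 gave 2 M1 aminopeptidases and 2 neighbors. With 1 array left out, the ranges were 643 to 814 for all genes, 2 to 2 for the other M14 genes, 1 to 1 for the serine carboxypeptidases, 3 to 5 for the M1 aminopeptidases, 0 to 1 for the dipeptidases and transporters and 2 to 7 for the neighbors. Causes were not tested beyond the construction of each alternative. Centring each array on its median moved the median difference of all entries by -0.12, and *CG18417* and the other called members kept their direction under it.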
